A study of Mus musculus with 8 samples.

Results

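A locus whose symbol begins with XLOC is a stretch of genome where reads were assembled into a transcript model that received no gene name. Of 11633 such symbols in the deposited expression table, 664 (5.71%) averaged at least 1 FPKM over the 8 libraries and are described here. FPKM is a fragment count scaled to transcript length and to library size. The loci were selected on that mean of all libraries, so their abundance is given as a description. XLOC_011406 and XLOC_011876 lay just inside the minimum, at means of 1.00 and 1.01 FPKM, and XLOC_002424 and XLOC_022771 just outside it, at 0.99965 and 0.994623 FPKM. Among the remaining XLOC symbols, 7324 were listed at 0 in every library.

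RNA-seq was performed on CJ9 cells, a mouse embryonic stem cell line of strain 129S4/SvJae, at day 4 after LIF was removed from the medium. LIF is a cytokine that keeps these cells undifferentiated. There were 3 Evx1as KO libraries, 3 libraries labelled EVX1 KO and 2 WT libraries, and the series title names CRISPR as the method of knockout. Evx1as is a noncoding RNA transcribed beside Evx1, which encodes a homeobox protein of the primitive streak. The labels do not say how many clones were used, which sequence was edited, or whether replicates were separate cultures, so p-values measure only the spread between these libraries, which may be technical.

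Evx1as, listed as 5730457N03Rik, stood at 0.0549, 0.104 and 0.0485 FPKM in Evx1as KO, at 5.01, 8.81 and 7.39 FPKM in EVX1 KO, and at 5.36 and 6.75 FPKM in WT. Evx1 stood at 2.45, 3.84 and 0.541 FPKM in Evx1as KO, at 26.3, 20.8 and 31.7 FPKM in EVX1 KO, and at 22.0 and 31.2 FPKM in WT. Evx1 transcript therefore gives no check of the label EVX1 KO. Summed FPKM ran from 531523 to 587798 per library, and depth estimated from steps between low values ran from 0.859 to 1.19 times that of WT replicate 1. Of 23 tested genes of a streak and mesendoderm list, 14 fell and 0 rose in Evx1as KO against WT, and of 31 mesoderm genes 23 fell and 1 rose. Of 26 primed epiblast genes, 13 rose and 4 fell in the same comparison. Pluripotency genes gave 7 rises and 7 falls among 23, and endoderm genes 0 and 4 among 11. Early neural genes gave 3 and 2 among 7, and Hox cluster genes 0 and 4 among 4. Over all symbols tested, 13.0% rose and 11.4% fell. In EVX1 KO against WT, rises and falls numbered 1 and 0 for streak, 0 and 1 for mesoderm, and 6 and 0 for primed epiblast genes. Over all symbols, 0.690% rose and 0.554% fell there. Of 8 tested fibroblast genes 5 fell in Evx1as KO, and the summed level of the 11 genes on that list was 728 to 1079 FPKM in Evx1as KO, 1403 to 1473 FPKM in EVX1 KO and 1800 to 2210 FPKM in WT. Within that list Lum and Postn stayed at or under 0.299 FPKM in every library, and Dcn ran from 0.317 to 1.75 FPKM. Col1a2 ran from 0.743 to 2.75 FPKM, Col3a1 from 0.335 to 2.24 FPKM and Col1a1 from 3.58 to 20.4 FPKM. Thy1 was not lower in Evx1as KO, at 3.86, 6.39 and 9.23 FPKM, against 2.39, 3.54 and 3.51 FPKM in EVX1 KO and 3.00 and 6.17 FPKM in WT. Most of the summed level came from Fn1, Tagln, Vim and Acta2, which mesoderm also expresses and which ran from 17.1 to 869 FPKM. The part of fibroblasts in the results was not tested. Fewer cells of a type and less RNA per cell cannot be told apart in these bulk samples.

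Gastrulation begins when epiblast cells, which carry the primed form of pluripotency, enter the primitive streak and become mesoderm or endoderm. Wnt, Nodal and Fgf signals drive that step. Many unnamed transcribed loci in mammalian genomes are long noncoding RNAs, divergent transcripts that leave a promoter in the opposite direction, extensions or retained introns of known genes, or copies of repeats. The symbol alone does not say which of these a locus is.

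Some of the loci lay directly upstream of a named gene in the table's coordinates. XLOC_023316 began 67 bp from the 5′ end of Yap1, XLOC_001506 lay 139 bp from Capn2, XLOC_011876 lay 250 bp from Cyp26a1 and XLOC_017344 lay 483 bp from Dhrs3. The RefSeq promoters of these 4 genes are shown because they face the loci. The 4 were picked by hand, XLOC_023316 after its values were seen, so they do not stand for promoters beside the loci in general. Their 250 bases upstream of the gene start are given 5′ to 3′ on the gene's strand, on GRCm38.p6. Capitals mark CG pairs. The windows are chr9:8004597-8004846 on the minus strand for Yap1, chr1:182517611-182517860 on the minus strand for Capn2, chr19:37697558-37697807 on the plus strand for Cyp26a1, and chr4:144892577-144892826 on the plus strand for Dhrs3, where the outermost of 3 starts was taken.
Yap1: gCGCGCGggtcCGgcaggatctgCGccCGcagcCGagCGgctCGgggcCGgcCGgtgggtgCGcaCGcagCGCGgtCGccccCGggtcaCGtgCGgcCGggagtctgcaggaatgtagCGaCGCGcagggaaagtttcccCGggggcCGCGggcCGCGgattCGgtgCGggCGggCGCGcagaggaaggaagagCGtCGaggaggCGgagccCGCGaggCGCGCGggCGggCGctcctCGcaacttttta
Capn2: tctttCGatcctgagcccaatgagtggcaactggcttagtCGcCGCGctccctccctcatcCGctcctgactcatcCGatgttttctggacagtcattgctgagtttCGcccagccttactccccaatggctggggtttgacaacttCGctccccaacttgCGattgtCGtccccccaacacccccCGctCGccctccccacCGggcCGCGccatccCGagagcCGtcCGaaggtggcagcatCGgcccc
Cyp26a1: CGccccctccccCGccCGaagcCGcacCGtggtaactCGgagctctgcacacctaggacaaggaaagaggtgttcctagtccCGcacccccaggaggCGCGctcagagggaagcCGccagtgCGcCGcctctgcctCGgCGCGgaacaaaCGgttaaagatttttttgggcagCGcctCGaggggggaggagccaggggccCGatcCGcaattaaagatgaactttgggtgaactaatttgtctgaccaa
Dhrs3: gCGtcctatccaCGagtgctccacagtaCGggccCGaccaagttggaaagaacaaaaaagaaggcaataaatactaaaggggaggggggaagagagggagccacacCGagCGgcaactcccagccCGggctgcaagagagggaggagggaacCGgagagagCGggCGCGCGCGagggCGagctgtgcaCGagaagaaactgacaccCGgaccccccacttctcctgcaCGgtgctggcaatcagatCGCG

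The Yap1 window held 44 CG pairs, the Cyp26a1 window 20, and the Capn2 and Dhrs3 windows 19 each. Over 32851 promoter windows of the same length the median was 6, and 0.539% held as many as Yap1, 17.9% as many as Cyp26a1 and 19.7% as many as the other two. TATAAA, the core of a TATA box, was searched on both strands. It was in none of the 4 windows and in 12.4% of all windows. Of the named symbols found in GENCODE on GRCm38, 11.6% overlapped the gene of that name in position, so the table is on another build. The end of Yap1 in the table, 8004596, is the base next to its window, so the positions coincide at that gene, but not at the other three. The loci were therefore not placed on these windows, and their own sequences are not used here.

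All 664 loci passed the filter for testing, which kept symbols that reached 1 FPKM in 2 or more libraries. Their mean levels had quartiles of 1.68, 3.33 and 7.80 FPKM, against 3.30, 8.99 and 24.6 FPKM for the 12339 named symbols tested. There were 208 loci under 2 FPKM, 135 at 10 FPKM or more and 16 at 100 FPKM or more. At least 1 FPKM was reached in all 8 libraries by 438 loci, while 54 had a library at 0. In 26 of those 54, the smallest value above 0 exceeded 1 FPKM, so an entry of 0 can stand beside libraries with several FPKM. The group mean reached 1 FPKM only in Evx1as KO for 17 loci, only in EVX1 KO for 5 and only in WT for 2. WT has the fewest libraries in the mean used for selection, so these counts follow in part from the selection. XLOC_022289, XLOC_012047, XLOC_000800 and XLOC_001595, described below, had means under 1 FPKM in EVX1 KO and in WT. They met the minimum through Evx1as KO, so their rises there are not independent of the selection. The counting error of such low levels is unknown, since the table holds no counts.

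Most of the loci sat on or beside a named gene. The locus column placed 455 of them (68.5%) over a named gene, 112 within 10 kb of the nearest one and 97 further away. The median gap of those that did not overlap was 8507 bp. With gene strand taken from GENCODE, 87 lay on the 5′ side of the nearest gene and 84 on the 3′ side, and for 38 the strand of the gene was unknown. For 322 loci the larger part of the span, or as much as lay outside, was inside the nearest gene, and the nearest gene was protein coding for 515. Locus length had a median of 3526.5 bp and ran from 252 to 1353852 bp. The table gives no strand for a locus, and the strand setting of the authors' counting was not given in the sources used here. Reads of a locus and of the gene it overlaps can therefore not be told apart.

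A few loci carried most of the signal. Together the 664 loci held between 3.78% and 6.74% of summed FPKM per library, and the 6 most abundant of them held between 71.0% and 82.7% of that amount. XLOC_010406 overlaps Rn45s, the 45S ribosomal RNA precursor, and stood at 6795.3, 12700.1 and 12722.4 FPKM in Evx1as KO, at 12025.2, 12963.9 and 11135.9 FPKM in EVX1 KO, and at 15123.3 and 12809.6 FPKM in WT. XLOC_014354, 284089 bp from Pex2, a peroxisome gene, stood at 4022.3, 8447.0 and 6724.6 FPKM in Evx1as KO, at 8038.5, 4741.4 and 4781.1 FPKM in EVX1 KO, and at 6074.4 and 6829.6 FPKM in WT. Evx1as KO replicate 1 was the lowest library at both loci, and was also the lowest at XLOC_009875, XLOC_008971, XLOC_008036 and XLOC_019037, the other four of the 6. XLOC_009875 shares part of its span with XLOC_010406, so the pair is not independent. Rn45s itself was lowest in the same library, at 350 FPKM, against 484 to 615 FPKM in the other seven. The seventh and eighth in abundance were XLOC_005478, over the splicing factor gene Srsf5 (218 to 275 FPKM in the 8 libraries), and XLOC_024538, over Lars2, which encodes mitochondrial leucyl-tRNA synthetase (173 to 318 FPKM). None of these 8 loci passed the test in any of the 3 comparisons, with adjusted p between 0.228 and 0.940 (limma). Log2 fold changes are given on the scale of log2(FPKM + 1), on which changes of low values come out smaller. They were −0.43 ± 0.25 (standard error) in Evx1as KO and −0.21 ± 0.25 in EVX1 KO against WT for XLOC_010406.

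The first comparison asked which loci differ between the Evx1as KO and WT libraries. In Evx1as KO against WT, 60 of the 664 loci rose and 45 fell, which is 15.8% of the loci, while 24.5% of all 13188 symbols were called (limma on all 8 libraries, adjusted p under 0.05 over all symbols). By direction, 13.0% of all symbols rose and 11.4% fell. The share among the loci was thus not above that of the table. Selection on the mean of all libraries, where WT has the fewest, can shift the balance of rises and falls among the loci. The median log2 fold change was 0.0028 over the loci and 0.017 over all symbols tested. Fold changes of the loci spread more widely, with outer quartiles of −0.31 and 0.35 against −0.24 and 0.28 over all symbols. The loci also had lower levels, and the part of level in the share called was not tested. Counts of calls depended on single libraries: 25 loci fell without Evx1as KO replicate 3, 37 rose and 18 fell without WT replicate 1, and 34 rose and 18 fell without WT replicate 2.

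**Figure D1:**
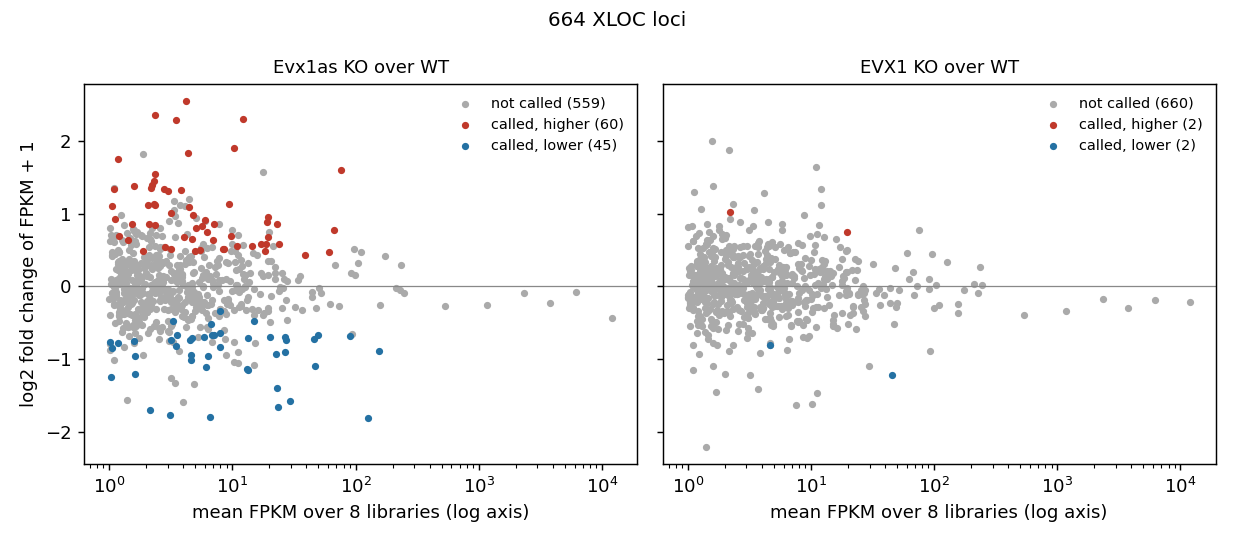
Log2 fold change of FPKM + 1 (vertical axis) against mean FPKM over 8 libraries (horizontal log axis) for the 664 XLOC loci, in Evx1as KO over WT (left) and EVX1 KO over WT (right). Red points rose and blue points fell at adjusted p under 0.05, and the called loci number 60 and 45 on the left and 2 and 2 on the right, while the most abundant loci, at the right edge of each panel, were not called.

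Among the rises ranked here, XLOC_022289, XLOC_012047, XLOC_000800 and XLOC_001595 met the minimum level through Evx1as KO. Their ranks and p-values are therefore not independent of the selection and are given as a description. The largest rise was at XLOC_022289 (chromosome 8, 67733020 to 67743267 in the table's coordinates), which stands 79584 bp from the 5′ end of BC030870. It stood at 8.54, 13.2 and 9.06 FPKM in Evx1as KO, at 0.0992, 0.407 and 0.761 FPKM in EVX1 KO, and at 0.678 and 1.15 FPKM in WT. All 3 Evx1as KO libraries were far above the other five. The log2 fold change was 2.54 ± 0.25 in Evx1as KO against WT (adjusted p = 0.000778) and −2.99 ± 0.22 in EVX1 KO against Evx1as KO (adjusted p = 0.000214). BC030870 was listed at 0 in all 8 libraries.

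XLOC_012047 (chromosome 2, 17968459 to 17969839) overlaps Skida1, a gene with a SKI and DACH domain. It stood at 5.63, 5.82 and 5.47 FPKM in Evx1as KO, at 0.457, 0.704 and 0.222 FPKM in EVX1 KO, and at 0.691 and 0 FPKM in WT. Evx1as KO libraries lay close together and above every other library, and the log2 fold change against WT was 2.35 ± 0.24 (adjusted p = 0.000908). Skida1 rose too, by 1.15 on the log2 scale (adjusted p = 0.00558). XLOC_024720 (chromosome X, 71038911 to 71042955) overlaps Pdzd4, which encodes a PDZ-domain protein. It stood at 21.5, 18.7 and 21.8 FPKM in Evx1as KO, at 3.16, 3.86 and 3.60 FPKM in EVX1 KO, and at 4.93 and 4.62 FPKM in WT. Pdzd4 had nearly the same change, with a log2 fold change of 1.89 (adjusted p = 0.000239) beside 1.90 ± 0.12 for the locus (adjusted p = 0.000239).

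Some of the loci that rose lay off the body of their nearest gene. XLOC_000800 (chromosome 1, 11375834 to 11377033), 27152 bp from A830018L16Rik, stood at 9.53, 5.39 and 10.2 FPKM in Evx1as KO, at 0.812, 0.278 and 0.263 FPKM in EVX1 KO, and at 0.817 and 0.910 FPKM in WT. The Evx1as KO libraries stood apart from the rest (log2 fold change against WT 2.29 ± 0.26, adjusted p = 0.00122). XLOC_000800 shares part of its span with XLOC_000027, another of the loci, which had a log2 fold change of −0.71 there. Reads of the pair cannot be told apart. XLOC_018236 (chromosome 5, 147284190 to 147285180) lies 1489 bp past the 3′ end of Wasf3, an actin regulator of the WAVE family, and stood at 9.37, 6.25 and 10.4 FPKM in Evx1as KO, at 1.35, 2.06 and 2.07 FPKM in EVX1 KO, and at 1.37 and 2.01 FPKM in WT. Wasf3 itself was 1.08 higher on the log2 scale (adjusted p = 0.00175), against 1.83 ± 0.22 at the locus (adjusted p = 0.00153). A further locus on a gene body, XLOC_007648 (chromosome 14, 100573758 to 100683930), over AK021307, stood at 25.4, 11.9 and 23.5 FPKM in Evx1as KO, at 7.28, 15.3 and 7.26 FPKM in EVX1 KO, and at 3.51 and 2.77 FPKM in WT. EVX1 KO libraries lay between the other groups or among the Evx1as KO libraries there, with a log2 fold change against WT of 2.30 ± 0.36 in Evx1as KO (adjusted p = 0.00348) and 1.33 ± 0.36 in EVX1 KO (adjusted p = 0.0952).

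XLOC_017344 (chromosome 4, 144444906 to 144482246), upstream of Dhrs3, which encodes an enzyme that reduces retinaldehyde, stood at 117, 121 and 104 FPKM in Evx1as KO, at 60.4, 60.1 and 70.4 FPKM in EVX1 KO, and at 27.2 and 49.5 FPKM in WT. The 3 groups did not overlap. The log2 fold change against WT was 1.60 ± 0.21 in Evx1as KO (adjusted p = 0.00187) and 0.77 ± 0.21 in EVX1 KO (adjusted p = 0.0941), and Dhrs3 rose by 1.94 in Evx1as KO (adjusted p = 0.00436) and had a log2 fold change of −0.03 in EVX1 KO (adjusted p = 0.967). XLOC_001595 (chromosome 10, 6092765 to 6100749), 12553 bp past the 3′ end of Akap12, an anchoring protein for protein kinase A, stood at 1.71, 2.42 and 3.07 FPKM in Evx1as KO, at 1.46, 0 and 0.715 FPKM in EVX1 KO, and was listed at 0 in both WT libraries. It was called in Evx1as KO against WT (adjusted p = 0.00821), a call that ended without either WT library (adjusted p up to 0.0531).

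Among falls, the largest was at XLOC_025335, described below with the loci near list genes. XLOC_000726 (chromosome 1, 188411203 to 188439324) lies 7740 bp past the 3′ end of Tgfb2, a ligand of the TGF-beta family. It stood at 2.26, 2.82 and 2.05 FPKM in Evx1as KO, at 6.46, 8.55 and 8.97 FPKM in EVX1 KO, and at 10.2 and 11.1 FPKM in WT. Evx1as KO was lowest and EVX1 KO lay between, with a log2 fold change against WT of −1.79 ± 0.16 in Evx1as KO (adjusted p = 0.000591) and −0.39 ± 0.16 in EVX1 KO (adjusted p = 0.204). Tgfb2 fell by 1.88 in Evx1as KO (adjusted p = 0.000778). XLOC_000548 (chromosome 1, 156945973 to 156951415) overlaps Ier5, an immediate early gene, and stood at 5.70, 10.6 and 10.4 FPKM in Evx1as KO, at 33.7, 35.1 and 34.5 FPKM in EVX1 KO, and at 29.1 and 29.4 FPKM in WT. It fell by 1.66 ± 0.21 in Evx1as KO against WT (adjusted p = 0.00175), and Ier5 fell by 1.55 (adjusted p = 0.000239). Both lie on chromosome 1, as does XLOC_001506, and the 36 loci of chromosome 1 had a median deviation from each locus' mean of −0.11, −0.14 and −0.10 in Evx1as KO, 0.17, 0.08 and 0.04 in EVX1 KO, and 0.24 and 0.0040 in WT. Their median log2 fold change in Evx1as KO against WT was −0.30, with 4 loci up and 7 down, and the part of that shift in these values was not tested.

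XLOC_014403 (chromosome 3, 27436871 to 27441093), over Fndc3b, a gene with fibronectin type III domains, stood at 9.31, 17.9 and 13.3 FPKM in Evx1as KO, at 23.1, 24.1 and 24.2 FPKM in EVX1 KO, and at 33.3 and 39.3 FPKM in WT. The order of the groups was the same as at XLOC_000726, with no overlap. Its log2 fold change in Evx1as KO against WT was −1.40 ± 0.21 (adjusted p = 0.00311). XLOC_002678 (chromosome 10, 110943541 to 110945696), over Phlda1, a gene with a pleckstrin homology-like domain, stood at 15.6, 24.5 and 12.5 FPKM in Evx1as KO, at 13.9, 26.2 and 37.2 FPKM in EVX1 KO, and at 46.5 and 58.6 FPKM in WT. Both knockouts lay under WT and overlapped each other. Its call in Evx1as KO (−1.57 ± 0.37, adjusted p = 0.0171) ended without Evx1as KO replicate 3 or either WT library, where adjusted p reached 0.111.

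The other falls among the 8 largest had low values. XLOC_021070 (chromosome 7, 137600954 to 137601603), over Ate1, an arginine transferase gene, stood at 0, 1.64 and 1.58 FPKM in Evx1as KO, at 1.49, 6.21 and 2.94 FPKM in EVX1 KO, and at 6.61 and 4.42 FPKM in WT. Ate1 did not follow it, at a log2 fold change of −0.08 (adjusted p = 0.650) beside −1.76 ± 0.50 at the locus (adjusted p = 0.0342). XLOC_023869 (chromosome 9, 114887946 to 114971121), 5275 bp upstream of Osbpl10, an oxysterol-binding protein family gene, stood at 1.18, 1.11 and 0 FPKM in Evx1as KO, at 2.01, 3.13 and 0.987 FPKM in EVX1 KO, and at 3.97 and 4.85 FPKM in WT. Osbpl10 had a log2 fold change of 0.01 (adjusted p = 0.944), against −1.70 ± 0.38 at the locus (adjusted p = 0.0138). XLOC_001506 (chromosome 1, 184447753 to 184450875), upstream of the calpain gene Capn2, was listed at 0 in all 3 Evx1as KO libraries and stood at 0.607, 1.88 and 2.97 FPKM in EVX1 KO and at 1.81 and 0.998 FPKM in WT. It was called (adjusted p = 0.0286), and Capn2 fell by 1.17 (adjusted p = 0.00102). The call of XLOC_001506 ended without any 1 of the Evx1as KO or WT libraries (adjusted p up to 0.173), that of XLOC_021070 without Evx1as KO replicate 1 or 3 or either WT library (up to 0.175), and that of XLOC_023869 without either WT library (up to 0.0882).

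**Figure D2:**
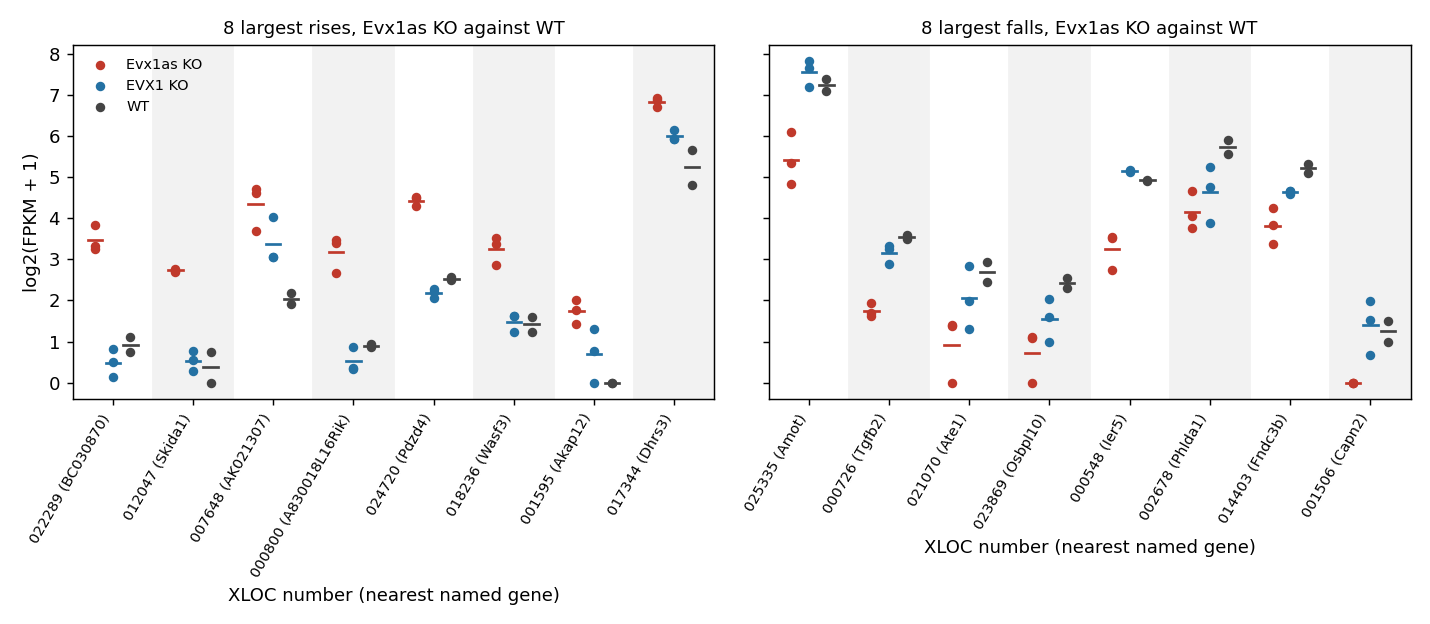
Log2(FPKM + 1) per library (vertical axis) at the 8 XLOC loci with the largest rises (left) and the 8 with the largest falls (right) in Evx1as KO against WT, with the nearest named gene in brackets. Points are libraries (3 Evx1as KO, 3 EVX1 KO, 2 WT) and lines are group means. The loci were chosen so that the Evx1as KO points lie all above or all below the WT points. XLOC_022289, XLOC_012047, XLOC_000800 and XLOC_001595 met the minimum level through Evx1as KO, so their rises are not independent of the selection. EVX1 KO lies among the WT points at XLOC_012047 and XLOC_018236 and between the other groups at XLOC_017344 and XLOC_014403.

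Loci near genes of the streak, mesoderm, primed epiblast and pluripotency lists were examined next. Within 100 kb of such genes there were 18 loci, beside 17 genes. Of the tested streak and mesendoderm genes, 7 of 23 (30.4%) had one of the 664 loci within 100 kb and 5 (21.7%) within 10 kb, beside 17.8% and 6.39% of all 12339 named symbols tested. The shares within 100 kb were 4 of 31 for mesoderm, 4 of 26 for primed epiblast and 2 of 23 for pluripotency genes. Among the 18 loci, 1 rose and 2 fell in Evx1as KO against WT, 0 were called in EVX1 KO against WT, and 4 rose and 0 fell in EVX1 KO against Evx1as KO. Over all symbols, 10.7% were higher and 11.3% lower in EVX1 KO than in Evx1as KO. With 18 loci and 23 genes these are counts only, and no difference from the table was tested.

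XLOC_025335 (chromosome X, 141924363 to 141939722) lies 2774 bp upstream of Amot, which is counted here through its place on the streak and mesendoderm list. Amot encodes angiomotin, a junction protein that holds YAP outside the nucleus. The locus stood at 27.5, 67.8 and 39.5 FPKM in Evx1as KO, at 202, 227 and 146 FPKM in EVX1 KO, and at 166 and 135 FPKM in WT. Every Evx1as KO library was under the other five, and EVX1 KO overlapped WT. The log2 fold change was −1.81 ± 0.32 in Evx1as KO against WT (adjusted p = 0.00586), 0.33 ± 0.32 in EVX1 KO against WT (adjusted p = 0.588) and 2.14 ± 0.29 in EVX1 KO against Evx1as KO (adjusted p = 0.00182). Without WT replicate 1 the adjusted p against WT was 0.0509. Amot stood at 9.15, 17.0 and 11.7 FPKM in Evx1as KO, at 61.0, 66.1 and 46.4 FPKM in EVX1 KO, and at 50.6 and 43.1 FPKM in WT. The libraries rank in the same order at the locus and at Amot, and Amot fell by 1.85 in Evx1as KO (adjusted p = 0.00171).

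XLOC_004551 (chromosome 11, 108783615 to 108785392) overlaps Axin2, a target of Wnt signalling that also restrains it. It stood at 5.51, 9.80 and 6.57 FPKM in Evx1as KO, at 14.1, 17.8 and 18.1 FPKM in EVX1 KO, and at 12.9 and 22.3 FPKM in WT. Evx1as KO lay under both other groups, which overlapped. The locus fell by 1.15 ± 0.26 against WT (adjusted p = 0.0131, or 0.103 without WT replicate 2), and Axin2 fell by 1.45 (adjusted p = 0.00158), with 10.3, 15.0 and 8.79 FPKM in Evx1as KO, 25.6, 27.0 and 27.5 FPKM in EVX1 KO, and 31.7 and 32.3 FPKM in WT.

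Next to other genes of the streak list the locus and the gene differed in whether they were called. XLOC_024499 (chromosome 9, 118396667 to 118398796) lies 1417 bp past the 3′ end of Eomes, a T-box factor of the streak. It stood at 1.42, 1.72 and 1.53 FPKM in Evx1as KO, at 1.21, 1.68 and 1.01 FPKM in EVX1 KO, and at 0.787 and 1.47 FPKM in WT, so the groups overlapped. Eomes stood at 13.4, 20.7 and 6.28 FPKM in Evx1as KO, at 52.8, 69.6 and 74.8 FPKM in EVX1 KO, and at 42.7 and 46.6 FPKM in WT. Eomes fell by 1.79 in Evx1as KO (adjusted p = 0.00995), while the locus had a log2 fold change of 0.28 ± 0.20 (adjusted p = 0.326). XLOC_011581 (chromosome 19, 45818879 to 45822795), which overlaps Npm3 and lies 1505 bp from Fgf8, a growth factor of the streak, held 0.668 to 1.87 FPKM in the 8 libraries with overlapping groups (log2 fold change 0.17 ± 0.27, adjusted p = 0.681). Fgf8 fell by 0.90 (adjusted p = 0.0453). The difference between a locus and its neighbour was not tested.

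XLOC_011876 (chromosome 19, 37752457 to 37772047), just upstream of Cyp26a1, which degrades retinoic acid, overlaps Cyp26c1 and is one of the loci nearest the minimum level. It stood at 0, 0.322 and 0.726 FPKM in Evx1as KO, at 0.291, 1.90 and 1.87 FPKM in EVX1 KO, and at 0.870 and 2.09 FPKM in WT. Evx1as KO lay under WT, but the change did not pass the test (−0.87 ± 0.40, adjusted p = 0.144). Cyp26a1 stood at 0.844, 3.01 and 1.74 FPKM in Evx1as KO, at 29, 31.1 and 33.6 FPKM in EVX1 KO, and at 17.2 and 24.0 FPKM in WT, and fell by 2.97 in Evx1as KO (adjusted p = 0.000713).

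Around Lefty1 and Lefty2, neighbouring genes for inhibitors of Nodal, loci within 100 kb included XLOC_001487 and XLOC_001488. XLOC_001488 (chromosome 1, 182797216 to 182798130), over Sde2 and 25119 bp upstream of Lefty2, stood at 3.45, 4.34 and 2.05 FPKM in Evx1as KO, at 3.93, 4.05 and 5.75 FPKM in EVX1 KO, and at 5.89 and 4.47 FPKM in WT (−0.56 ± 0.24 in Evx1as KO, adjusted p = 0.126). Evx1as KO lay under WT, and EVX1 KO overlapped both. XLOC_001487, over H3f3a, held 0.979 to 1.62 FPKM in Evx1as KO, 1.52 to 2.39 FPKM in EVX1 KO and 1.45 to 1.66 FPKM in WT. Neither passed the test in a comparison, and their adjusted p ran from 0.126 to 0.749.

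XLOC_010788 (chromosome 18, 34758271 to 34762096) overlaps Brd8, a bromodomain gene, and lies 50556 bp past the 3′ end of Wnt8a, a Wnt ligand on both the streak and the epiblast list. It stood at 5.95, 6.20 and 7.12 FPKM in Evx1as KO, at 5.26, 5.73 and 4.66 FPKM in EVX1 KO, and at 4.31 and 4.18 FPKM in WT. The 3 groups did not overlap, and the locus rose by 0.50 ± 0.12 in Evx1as KO (adjusted p = 0.0199), up to 0.0947 when Evx1as KO replicate 3 or a WT library was left out. Neither Wnt8a (log2 fold change 0.10, adjusted p = 0.828) nor Brd8 (0.04, adjusted p = 0.781) passed the test.

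Of the primed epiblast list, Zic5 and Zic2 encode zinc finger factors that share a bidirectional locus. XLOC_007193 (chromosome 14, 122863759 to 122865676), over Zic5 and 8929 bp from Zic2, stood at 2.85, 0.865 and 2.29 FPKM in Evx1as KO, at 1.53, 0.457 and 1.08 FPKM in EVX1 KO, and at 0.646 and 0.284 FPKM in WT. Evx1as KO lay above WT, and the change missed the threshold (0.98 ± 0.34, adjusted p = 0.0626). Zic5 rose by 1.65 (adjusted p = 0.00174) and Zic2 by 1.61 (adjusted p = 0.000239) in Evx1as KO, and both also rose in EVX1 KO against WT, by 1.17 (adjusted p = 0.0397) and 0.98 (adjusted p = 0.0124). XLOC_006939 (chromosome 14, 52878485 to 52883902), over Rab2b and 46949 bp from Sall2, a zinc finger gene of the epiblast list, stood at 1.71, 1.15 and 0.935 FPKM in Evx1as KO, at 2.40, 1.82 and 2.18 FPKM in EVX1 KO, and at 1.75 and 1.81 FPKM in WT (−0.31 ± 0.18, adjusted p = 0.231). Sall2 rose by 1.36 (adjusted p = 0.00689). The 35 loci of chromosome 14 were unequal between libraries. Their median deviation from each locus' mean was 0.10, −0.38 and −0.22 in Evx1as KO, 0.15, 0.24 and 0.08 in EVX1 KO, and 0.03 and −0.13 in WT. Loci of other chromosomes varied too, such as the 17 of chromosome 6, at −0.33, −0.06 and 0.17 in Evx1as KO. Named genes of the chromosome are not included, and the part of such shifts in these values was not tested.

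For pluripotency genes, XLOC_007513 (chromosome 14, 64140585 to 64142776), over Mtmr9 and 12656 bp from Tdh, the threonine dehydrogenase of mouse embryonic stem cells, stood at 14.7, 10.5 and 9.81 FPKM in Evx1as KO, at 17.5, 16.6 and 16.5 FPKM in EVX1 KO, and at 13.9 and 15.1 FPKM in WT. It was higher in EVX1 KO than in Evx1as KO (0.51 ± 0.14, adjusted p = 0.0289), a call lost without 5 of the 6 libraries in turn. Tdh was lower there, with a log2 fold change of −0.89 in EVX1 KO against Evx1as KO (adjusted p = 0.0188). XLOC_023682, a locus of 359929 bp over Ick and 16347 bp from Dppa5a, a gene of early embryonic cells, held 1.40 to 2.69 FPKM in Evx1as KO, 0 to 3.82 FPKM in EVX1 KO and 1.01 to 2.50 FPKM in WT.

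The mesoderm list brought 6 loci, of which XLOC_011876 is given with Cyp26a1. XLOC_020532 (chromosome 7, 29161587 to 29177382), over the Mediator gene Med29 and 74783 bp from Dll3, a Notch ligand gene, stood at 23.7, 27.7 and 25.2 FPKM in Evx1as KO, at 49.7, 33.7 and 35.4 FPKM in EVX1 KO, and at 30.1 and 32.4 FPKM in WT. It was higher in EVX1 KO than in Evx1as KO by 0.59 ± 0.14 (adjusted p = 0.0188), which was lost without Evx1as KO replicate 1 or 3 (up to 0.0649). Dll3 was higher there too (0.81, adjusted p = 0.00397). XLOC_005286 (chromosome 12, 25741098 to 25747964), over Kidins220 and 30699 bp from Id2, an inhibitor of bHLH factors, stood at 9.07, 9.56 and 8.61 FPKM in Evx1as KO, at 9.29, 11.5 and 11.3 FPKM in EVX1 KO, and at 13.9 and 9.65 FPKM in WT, with no call (−0.32 ± 0.16 in Evx1as KO, adjusted p = 0.158). Id2 fell by 0.94 (adjusted p = 0.0346). XLOC_009690 (chromosome 17, 27078421 to 27083681), 99911 bp from the cardiac factor gene Nkx2-5, stood at 2.00, 0.645 and 2.93 FPKM in Evx1as KO, at 1.71, 4.53 and 1.85 FPKM in EVX1 KO, and at 1.30 and 1.10 FPKM in WT (0.29 ± 0.39, adjusted p = 0.627). XLOC_021856, 73966 bp from the T-box gene Tbx6, held 2.13 to 3.29 FPKM over the 8 libraries and XLOC_021322, 96111 bp from Dll3, held 1.64 to 2.74 FPKM, and neither was called in a comparison.

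**Figure D3:**
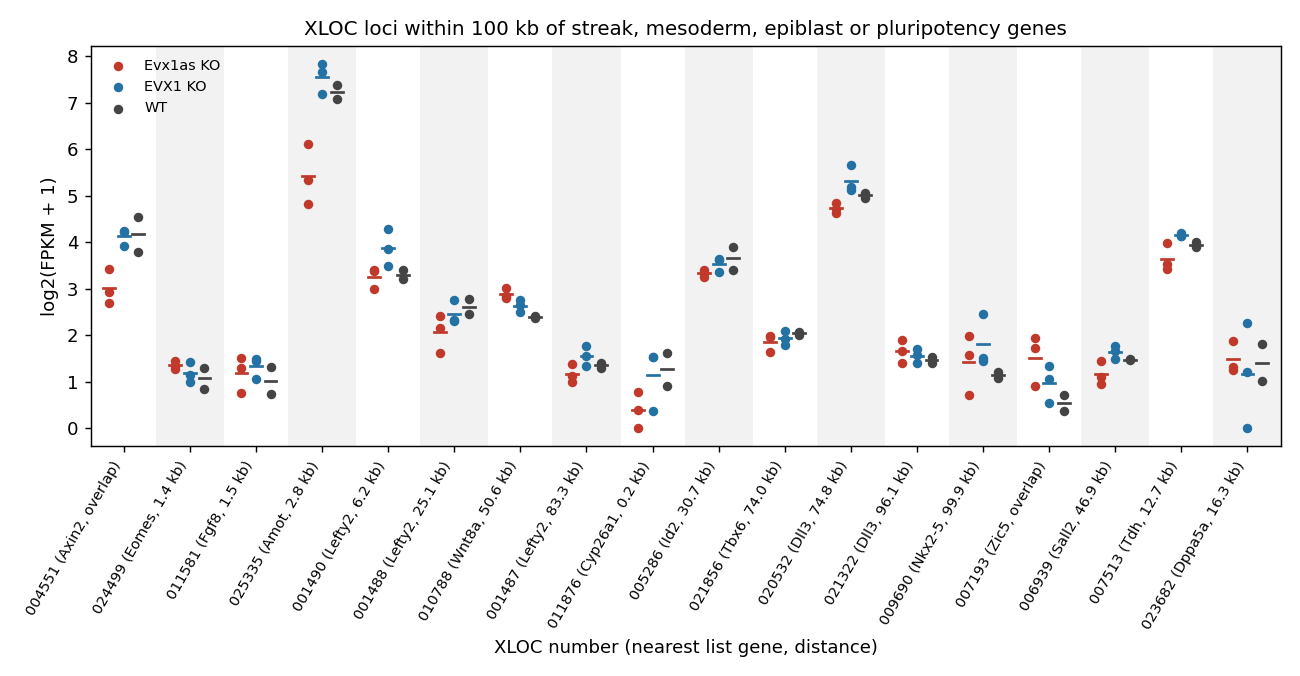
Log2(FPKM + 1) per library (vertical axis) at the 18 XLOC loci within 100 kb of a gene of the streak, mesoderm, epiblast or pluripotency lists, named with the nearest list gene and its distance. Points are libraries (3 Evx1as KO, 3 EVX1 KO, 2 WT) and lines are group means, and the widest separation is at XLOC_025335 near Amot, where Evx1as KO held 27.5 to 67.8 FPKM against 135 to 166 FPKM in WT.

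No locus among the 664 lay within 500 kb of Evx1. The table has 7 XLOC symbols in that window, all below the minimum level, and the nearest of the 664 was XLOC_019237, 667 kb away on chromosome 6. The 3 loci that follow lay outside the naming rule and were chosen after their values were seen. XLOC_022921 (chromosome 8, 59663581 to 59696499), 103280 bp upstream of Hand2, a bHLH factor of mesoderm, stood at 3.10, 4.39 and 2.48 FPKM in Evx1as KO, at 3.17, 5.43 and 3.60 FPKM in EVX1 KO, and at 7.72 and 7.34 FPKM in WT. Both knockouts lay under WT, and the locus fell by 1.00 ± 0.22 in Evx1as KO (adjusted p = 0.0131). Hand2 was listed at 0 in all 3 Evx1as KO libraries and stood at 2.37, 5.42 and 2.84 FPKM in EVX1 KO and at 2.27 and 0.584 FPKM in WT. XLOC_023316 (chromosome 9, 8004663 to 8009619), upstream of Yap1, the effector of the Hippo pathway that angiomotin binds, stood at 3.41, 2.90 and 4.69 FPKM in Evx1as KO, at 2.04, 2.24 and 1.27 FPKM in EVX1 KO, and at 1.03 and 1.23 FPKM in WT. The locus rose by 1.11 ± 0.21 in Evx1as KO (adjusted p = 0.00694), and Yap1 had a log2 fold change of 0.04 (adjusted p = 0.777). XLOC_011716, over the nuclear noncoding RNA gene Malat1, stood at 48.8, 53.2 and 87.5 FPKM in Evx1as KO, at 61.4, 107 and 61.2 FPKM in EVX1 KO, and at 121 and 44.4 FPKM in WT. Its groups overlapped (−0.26 ± 0.42, adjusted p = 0.682), while Malat1 fell by 2.19 (adjusted p = 0.00359).

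Change at a locus was then set beside change at its nearest named gene, over the 504 loci whose nearest gene was tested. In Evx1as KO against WT, 82 of the called loci had a tested neighbour. The neighbour was called too for 42 of them, 41 in the same direction and 1 in the other. That exception was XLOC_021055, which fell by 0.82 ± 0.24 (adjusted p = 0.0388), 4249 bp from Bcl7c, which rose by 0.33 (adjusted p = 0.0469). Loci over the gene gave 33 of the 41, those within 10 kb gave 5 and those further away gave 3. As a share of called loci with a tested neighbour, both were called in the same direction for 57.9% of overlapping loci, 29.4% of those within 10 kb and 37.5% of those further away. Counts of pairs depended on single libraries, with 23 without Evx1as KO replicate 3 and 15 without WT replicate 1 or without WT replicate 2.

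Across loci, which are not independent replicates, the log2 fold changes of locus and gene in Evx1as KO against WT correlated at r = 0.61 over 379 overlapping pairs, 0.44 over 83 pairs within 10 kb and 0.21 over 42 pairs further apart. All pairs come from the same libraries, and overlapping pairs can also share reads. The signs were the same in 284, 48 and 21 of these pairs. For comparison, each named symbol tested was paired with the nearest other named symbol that was also tested. Locus pairs instead took the nearest of all named symbols and were kept only where that gene was tested. The kinds of pair are therefore not built alike. Called named symbols shared call and direction with that neighbour in 19.6% of cases, or 32.5% where the pair overlapped, and r was 0.39 over overlapping pairs, 0.13 within 10 kb and 0.11 further apart. The difference between the locus pairs and the named pairs was not tested.

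**Figure D4:**
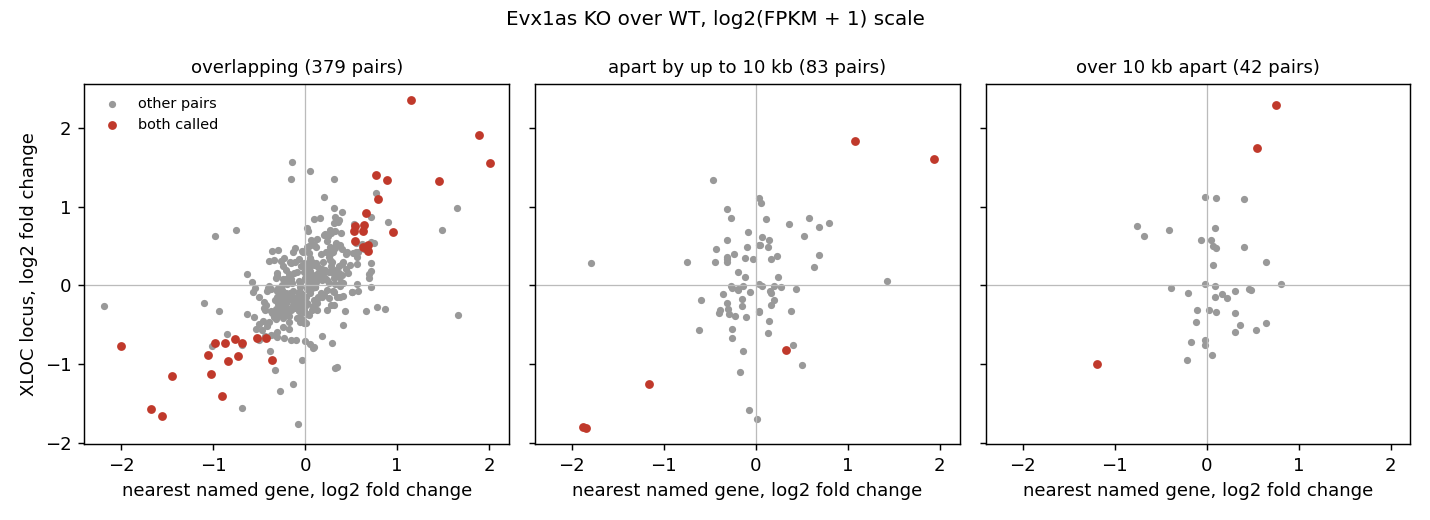
Log2 fold change of each XLOC locus (vertical axis) against that of its nearest named gene (horizontal axis) in Evx1as KO over WT, on the log2(FPKM + 1) scale, for overlapping pairs (379), pairs up to 10 kb apart (83) and pairs over 10 kb apart (42). Red points are pairs in which both were called, and all but 1 of the 42 red points lie in the quadrants where locus and gene moved the same way.

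In EVX1 KO against WT, 2 loci rose and 2 fell, which is 0.602% of the 664, while 1.24% of all symbols were called (0.690% up and 0.554% down). XLOC_013944 (chromosome 2, 128919596 to 128922806), over Ttl, the tubulin tyrosine ligase gene, stood at 2.65, 2.18 and 2.06 FPKM in EVX1 KO, at 2.80, 3.52 and 3.04 FPKM in Evx1as KO, and at 0.801 and 0.446 FPKM in WT. It rose in EVX1 KO (1.03 ± 0.16, adjusted p = 0.0306) and in Evx1as KO (1.35 ± 0.16, adjusted p = 0.00155), and both knockouts lay above WT. XLOC_006539 (chromosome 13, 74631297 to 74756013), over the zinc finger gene Zfp825, stood at 22.7, 19.9 and 19.4 FPKM in EVX1 KO, at 25.4, 21.3 and 24.7 FPKM in Evx1as KO, and at 10.8 and 13.0 FPKM in WT. It also rose in both, by 0.75 ± 0.12 (adjusted p = 0.0319) in EVX1 KO and 0.95 ± 0.12 (adjusted p = 0.00183) in Evx1as KO, and the comparisons share their WT libraries.

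XLOC_002292 (chromosome 10, 24315054 to 24316914) overlaps Ctgf, a secreted matrix protein gene that YAP activates. It stood at 29.7, 30.9 and 30.9 FPKM in EVX1 KO, at 44.1, 36.9 and 49.3 FPKM in Evx1as KO, and at 76.7 and 67.5 FPKM in WT. The 3 groups did not overlap, and the locus fell by 1.21 ± 0.12 in EVX1 KO (adjusted p = 0.0124) and 0.73 ± 0.12 in Evx1as KO (adjusted p = 0.00453). Ctgf fell by 1.08 in EVX1 KO (adjusted p = 0.0276), which made it the only pair of locus and nearest gene both called in this comparison. XLOC_024163 (chromosome 9, 57349854 to 57353250), over Rpp25, a gene for a subunit of RNase P that the table lists at 0 in all libraries, stood at 2.43, 2.86 and 3.77 FPKM in EVX1 KO, at 5.14, 5.93 and 4.86 FPKM in Evx1as KO, and at 6.04 and 5.91 FPKM in WT. EVX1 KO lay under every other library, and the locus fell by 0.81 ± 0.16 against WT (adjusted p = 0.0482). In Evx1as KO against WT its log2 fold change was −0.15 ± 0.16 (adjusted p = 0.520), with overlapping groups. Each of these 4 calls was lost without at least 2 single libraries in turn, and without a single library the counts ran from 0 to 3 rises and from 0 to 11 falls, with 11 without EVX1 KO replicate 3.

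Between the knockouts, 42 loci were higher and 64 lower in EVX1 KO than in Evx1as KO, which is 16.0% of the 664, while 22.0% of all symbols were called. The Evx1as KO libraries are shared with the comparison against WT, so the 2 sets of calls are not independent. Without Evx1as KO replicate 3 the counts were 21 higher and 29 lower, without EVX1 KO replicate 2 they were 22 and 31, and 36 were lower without Evx1as KO replicate 1. Without loci of chromosomes 1, 8 and 14, 26 were higher. The median deviation of the 48 loci of chromosome 8 was −0.24, −0.20 and 0.09 in EVX1 KO, 0.08, 0.12 and 0.15 in Evx1as KO, and 0.02 and −0.09 in WT. The part of these shifts was not tested.

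The largest difference upward was at XLOC_021427 (chromosome 7, 48130033 to 48154648), over A230077H06Rik. It stood at 6.58, 6.43 and 6.33 FPKM in EVX1 KO and at 0, 1.92 and 0 FPKM in Evx1as KO, with 5.19 and 1.08 FPKM in WT. EVX1 KO lay above every other library (2.38 ± 0.47 over Evx1as KO, adjusted p = 0.00919), and WT was split. The next were XLOC_025335 (2.14 ± 0.29), XLOC_000548 (1.88 ± 0.19), XLOC_000726 (1.41 ± 0.14) and XLOC_001506, each called also against WT in Evx1as KO. Downward, XLOC_022289 was followed by XLOC_000800 (−2.67 ± 0.23), XLOC_024720 (−2.25 ± 0.10), XLOC_012047 (−2.20 ± 0.21) and XLOC_004792. Of these, XLOC_022289, XLOC_000800 and XLOC_012047 met the minimum level through Evx1as KO, so their differences are not independent of the selection. XLOC_004792 (chromosome 12, 19055287 to 19063245), 330473 bp from AK149188, stood at 2.99, 5.0 and 3.30 FPKM in EVX1 KO and at 22.2, 17.0 and 10.1 FPKM in Evx1as KO, with 4.74 and 9.21 FPKM in WT. The Evx1as KO libraries were the highest of the 8 (−1.83 ± 0.30 in EVX1 KO against Evx1as KO, adjusted p = 0.00420).

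Of 82 called loci with a tested nearest gene in this comparison, 46 (56.1%) had the gene called in the same direction and 1 in the other. Of called named symbols, 21.2% shared call and direction with their nearest tested named symbol. The share was 57.4% of overlapping loci, 57.1% of those within 10 kb and 42.9% of those further away, against 31.2%, 18.6% and 20.7% for named pairs. Across loci the fold changes correlated at r = 0.58, 0.53 and 0.30 in these classes, against 0.50, 0.25 and 0.17 for named pairs, and the difference was not tested. Of all 664 loci, 513 were called in none of the 3 comparisons. The matching share over all symbols was not computed, so this count does not set the loci apart. Of all symbols, 24.5% were called in Evx1as KO against WT, 1.24% in EVX1 KO against WT and 22.0% between the knockouts. Where 2 of the loci stood within 10 kb of each other, which gave 26 pairs, the log2 fold changes in Evx1as KO against WT had the same sign in 15 pairs.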

How the data were processed

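Expression was measured by RNA-seq in 8 libraries, grouped by the sample labels. Per the labels' protocols, mRNA was isolated with Dynabeads and libraries came from a TruSeq Stranded kit. The authors deposited 1 table of FPKM values for all libraries. TopHat2 2.0.11, CASAVA and the builds mm9 and mm10 are listed without a role, per the submitters' processing notes. The program behind FPKM and the build of the table were not given in the sources used here.

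Of 45772 lines, 42245 held values for 38610 symbols. FPKM is no count, so depth in reads is unknown and intervals for counting error are left out. Symbols that reached 1 FPKM in 2 or more libraries were tested (13188) on log2(FPKM + 1) in 1 fit with a mean per group (limma 3.58.1, R 4.3.3, empirical Bayes with trend, two-sided), with Benjamini-Hochberg adjustment over all of them. The fit was also run on simulated data with independent normal values for each symbol. Such data hold no shifts shared within a library or chromosome and no overlapping reads, so that run cannot check these features. The nearest gene was the named symbol with the smallest gap, edge to edge, where overlap is 0. The 5 loci on 2 lines kept the line nearest a named gene, and 9 loci carry a LOWDATA status. Tables were handled in Python 3.11.15 (pandas 2.3.3, numpy 2.4.6, matplotlib 3.10.9).

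Loci named were those within 100 kb of genes on 4 lists, the 8 most abundant, the 8 largest rises and falls per knockout against WT and 5 each way between knockouts, among called loci whose groups did not overlap, and those at the minimum level. Values of 1 of these loci are not reported here. Loci, lists and tests were chosen with earlier results of these data known. Alternatives were another pseudocount (0.1), other filters, median-ratio scaling, fits on the compared groups, a replicate block, leaving out each library, and other distances.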

Additional observations from a re-analysis of the deposited data

How the results depend on the processing

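Counts of called loci kept within 1.5 times under median-ratio scaling and under a filter on the mean. With no filter on low values, 22 fell in Evx1as KO against WT, 0 rose and 1 fell in EVX1 KO against WT, and 20 were higher and 32 lower in EVX1 KO than in Evx1as KO, while pairs of locus and gene called in the same direction numbered 27, 0 and 27. With a pseudocount of 0.1, 1 locus fell in EVX1 KO against WT, and in a fit on the compared groups 1 rose there. Without chromosomes 1, 8 and 14, 26 loci were higher in EVX1 KO than in Evx1as KO. Over 10 kb from a named gene the pairs numbered 3, 0 and 3, and 64 loci lay within 500 kb of a list gene. Leaving out 1 library gave 34 to 66 rises and 18 to 52 falls in Evx1as KO against WT, 0 to 3 and 0 to 11 in EVX1 KO against WT, and 21 to 39 higher and 29 to 63 lower in EVX1 KO than in Evx1as KO. Pairs ranged from 15 to 44, 0 to 5 and 16 to 40 in these comparisons. Causes were not tested.

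Same-numbered libraries deviated together at correlations of −0.0985 to 0.0759, beside −0.159 to 0.161 for libraries of unlike number. Deviations from the mean of so few libraries are tied to each other. These values therefore cannot decide whether same-numbered libraries share more than a number. With the replicate block, 65 loci rose and 42 fell in Evx1as KO against WT, 0 rose and 1 fell in EVX1 KO against WT, and 44 were higher and 51 lower in EVX1 KO than in Evx1as KO. Of 45 called values of named loci, 25 kept their call without every single library, and none of these 45 changed sign without a library. The counting error of values listed at 0 is unknown.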
